A study of Homo sapiens with 5 samples.

Results

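The protein genes of the cytosolic ribosome were examined in K562 cells, a human chronic myeloid leukaemia line, on bead arrays that compared a knockdown of the histone H3 lysine 9 demethylase JMJD1B with a control. They were taken by symbol: protein-coding genes called RPL or RPS with a number (with an A, X, Y or L suffix where there is one), RPLP0 to RPLP2 and RPSA, with S6 kinases and pseudogenes left out and with a detection p-value under 0.05 on 2 or more arrays. This gave 73 of the 11041 named genes on the arrays, 46 of the large (60S) and 27 of the small (40S) subunit, read by 116 probes of which 114 were detected on all 5 arrays. Other genes that fit the symbols were not analysed here.

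The knockdown group held 3 arrays (sh-JMJD1B) and the control group 2 (sh-CTL). Both consist of stable K562 lines with a tetracycline-inducible (Tet-on) short hairpin RNA, and both received doxycycline at 1 µg/ml for 48 h, so the inducer itself does not separate them. The cells of both groups grew in medium with 5% serum. Nothing in the labels says how many clones or hairpins stand behind a group, or that replicates were separate cultures, so the p-values measure the spread between these samples, which may be technical, and a difference between lines and an effect of the knockdown cannot be told apart. The targeted gene, JMJD1B, was not analysed here, so its level gives no check of the labels.

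The median signal over the labelled probes was 464 to 499 on the knockdown arrays and 456 to 458 on the control arrays, and the highest signal on any array was 70208. A total of 9 markers of K562 and the red cell lineage were measured, with the fetal globin genes HBG1 and HBG2 near the top of the range. Of 12 markers of other cells, only LYZ, CD14, KRT19 and ALB were measured, with group signals between 232 and 2438. Among these 13 markers, the limma test described below called HBZ (log2 difference -0.56), ALAS2 (-0.51) and ALB (-0.29), all lower in the knockdown, and their part in the values below was not tested.

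The cytosolic ribosome is built from ribosomal RNA and a set of proteins that are needed in equal numbers, and cells make their mRNAs at high and coordinated levels. Most of these mRNAs begin with a 5′ terminal oligopyrimidine (TOP) tract, a C followed by an unbroken run of C and T bases, through which mTOR signalling controls their translation. Red cell precursors are known to be sensitive to a shortage of single ribosomal proteins, which underlies Diamond-Blackfan anaemia and the anaemia of the 5q- syndrome. A few of the genes have paralogues (an L in the suffix) that can replace the parent protein in some tissues.

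The TOP tract could be read in the start sites of these genes. RefSeq promoter sequences (GRCh38.p14, 250 bases before to 50 from the start onwards) were found for 62 of the 73 genes, as 72 promoters. A C at the start base followed by at least 4 more pyrimidines stood in 43 of the 72 promoters (59.7%), against 4.07% of all 35116 promoters in the table. By gene, 43 of 62 had such a start (69.4%), against 5.14% of all 27305 genes. The tract was sought only from the annotated start base, so a start annotated some bases off could hide or shorten it. The windows below show genes that the results turn on, with paralogues beside their parents, from 60 bases before the start to the first 15 bases of the transcript. They are written 5′ to 3′ on the gene's own strand, and the capitals mark the start base and the pyrimidines that run on from it without a break.
RPS27L: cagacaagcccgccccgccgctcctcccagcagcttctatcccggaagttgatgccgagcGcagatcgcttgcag
RPS27: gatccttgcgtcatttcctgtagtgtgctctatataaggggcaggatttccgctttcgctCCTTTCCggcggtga
RPL26L1: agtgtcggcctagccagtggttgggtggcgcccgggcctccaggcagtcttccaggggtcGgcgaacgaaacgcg
RPL26: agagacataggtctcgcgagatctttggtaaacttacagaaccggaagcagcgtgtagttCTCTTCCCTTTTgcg
RPL36AL: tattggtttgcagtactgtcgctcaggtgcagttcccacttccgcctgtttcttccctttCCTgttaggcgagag
RPL36A: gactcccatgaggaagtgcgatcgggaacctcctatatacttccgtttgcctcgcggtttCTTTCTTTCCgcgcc
RPL7L1: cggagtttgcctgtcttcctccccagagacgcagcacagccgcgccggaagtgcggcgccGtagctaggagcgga
RPL28: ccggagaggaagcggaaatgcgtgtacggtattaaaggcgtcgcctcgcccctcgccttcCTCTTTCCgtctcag
RPS23: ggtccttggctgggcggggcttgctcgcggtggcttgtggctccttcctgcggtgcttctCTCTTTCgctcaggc
RPS12: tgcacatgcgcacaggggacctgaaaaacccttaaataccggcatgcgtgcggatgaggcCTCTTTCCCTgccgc

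The windows lie at chr15:63157463-63157537 (minus strand) for RPS27L, chr1:153990702-153990776 (plus) for RPS27, chr5:172958669-172958743 (plus) for RPL26L1 and chr17:8383179-8383253 (minus) for RPL26. Those of RPL36AL and RPL36A lie at chr14:49620612-49620686 (minus) and chrX:101390951-101391025 (plus), and that of RPL7L1 at chr6:42879556-42879630 (plus). RPL28, RPS23 and RPS12 have theirs at chr19:55385872-55385946 (plus), chr5:82278340-82278414 (minus) and chr6:132814509-132814583 (plus). Each window covers upstream sequence and the beginning of the first exon. For RPL26L1 the table gives 2 starts, of which the first is shown. The parent genes RPS27, RPL26 and RPL36A began with unbroken runs of 7, 12 and 10 pyrimidines. Their paralogues RPS27L and RPL26L1 began with a G and had no run, and RPL36AL had a run of 3. Further pyrimidines stood directly before the annotated start of RPL36AL.

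Further promoter motifs were searched on both strands of these promoter sequences. CCGGAAG, the core of sites bound by ETS factors such as GABP, was present in 26 of 72 promoters (36.1%), against 10.3% of all promoters. AAGATGGC, as bound by YY1, was found in 6 (8.33%, against 2.89%), and a palindromic element known from TATA-less promoters in 5 (6.94%, against 0.424%). TATAAA was found in 4 (5.56%, against 11.5%). These are matches of letters only and do not show binding.

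No gene of the cytosolic ribosome passed the threshold in either direction. In limma, fitted across all 19105 detected probes with Benjamini-Hochberg adjustment, 0 of the 73 genes had a higher and 0 a lower knockdown level with an adjusted p under 0.05, while 2.56% of all 11041 genes tested were called higher and 3.70% lower. At an unadjusted p under 0.05, 5 genes passed (6.85%), against 24.0% of all genes, and the 5, RPS27L, RPL28, RPS23, RPS4Y1 and RPL8, all lay lower in the knockdown. Each gene was read by its probe with the highest mean level, values are log2(signal + 16) after quantile normalization, and differences are knockdown minus control. An array reads RNA relative to the other RNA of the sample, so less RNA per cell and fewer cells with the RNA cannot be told apart.

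The differences were small and lay on both sides of zero. Their median over the 73 genes was -0.0043, beside -0.0087 over all genes tested, with 34 positive and 39 negative. The middle of the distribution ran from -0.05 to 0.04 (quartiles), and the extremes were -0.32 for RPL8 and 0.10 for RPL23. A total of 63 genes differed by less than 0.1 and the other 10 were lower by at least that much. The large subunit genes had a median of -0.0041 (22 positive and 24 negative) and the small subunit genes one of -0.012 (12 and 15). The 95% interval of the difference lay wholly within a 1.2-fold change for 66 of the 73 genes, and within a 1.5-fold change for 72, RPL8 being the exception. The intervals bound the change in signal, which may understate a change in RNA near the upper end of the arrays and in dim genes. For the 7 genes whose interval reached past 1.2-fold, RPL8, RPL37, RPS27L, RPL4, RPS4Y1, RPL28 and RPS23, it did so on the side of lower levels. The plot of all 73 differences with their intervals shows these at the top of each panel.

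**Figure D1:**
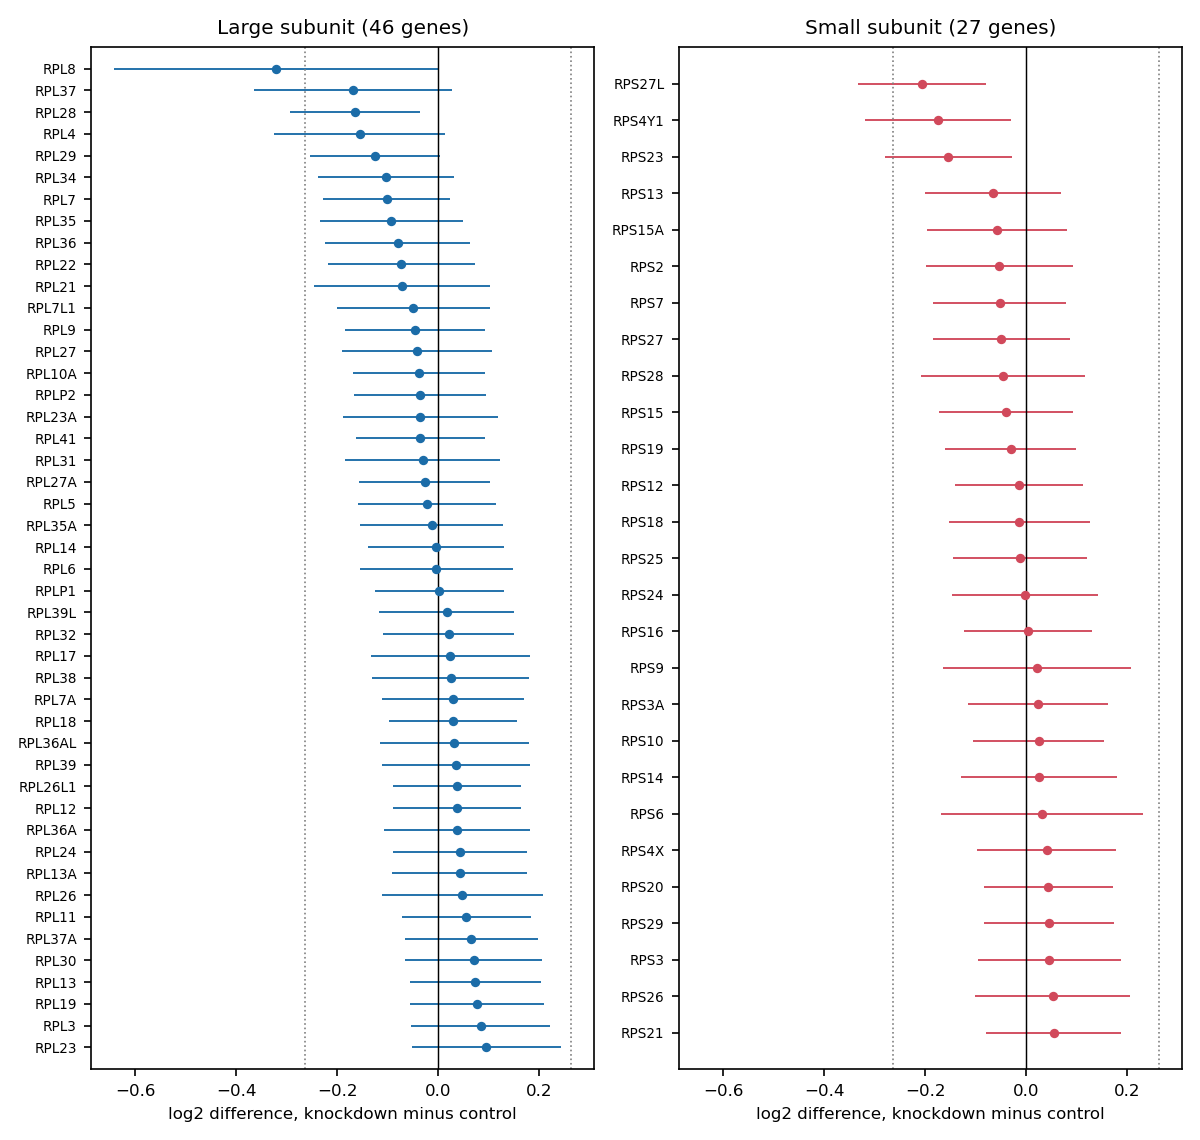
Difference in log2 level between knockdown (3 arrays) and control (2 arrays) for each ribosomal protein gene (points), with the 95% interval from limma (bars), in order of the difference. Dotted lines mark a 1.2-fold change, and 66 of the 73 intervals lie between them. The intervals refer to signal, which may understate a change in RNA in the brightest and dimmest genes.

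The median level of the set overlapped between the groups. Over the 73 genes it was 14.98, 14.93 and 15.06 on knockdown arrays 1 to 3, against 15.06 and 15.01 on control arrays 1 and 2. The knockdown mean was 14.99 ± 0.06 (SD, n = 3) and the control mean 15.03 ± 0.03 (SD, n = 2), and the arrays of the groups overlapped. The 116 probes held 6.38%, 6.52% and 6.59% of the summed deposited signal of the detected probes on the knockdown arrays, against 6.60% and 6.54% on the control arrays. The mean level of large subunit genes minus that of small subunit genes was -0.69, -0.69 and -0.70 in the knockdown and -0.71 and -0.68 in the control, with the control values on either side of the knockdown ones. Without normalization the signals gave a median difference of 0.06 over the 73 genes, beside 0.06 over all genes.

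In 19 of the 73 genes the arrays of the groups did not overlap. The knockdown levels were the higher ones in 8 genes, beside 17.9% of all genes tested, and the lower ones in 11 (15.1%), beside 23.9%. The 8 were RPL11, RPL12, RPL13, RPL19, RPL23, RPL26L1, RPL37A and RPS20, with differences of 0.04 to 0.10. The 11 were RPL4, RPL7, RPL28, RPL29, RPL34, RPL35, RPS4Y1, RPS7, RPS13, RPS23 and RPS27L, with differences of -0.21 to -0.05. The median SD between replicates over the 73 genes was 0.04 in the knockdown and 0.05 in the control. These counts are descriptions, and whether the set differs from other genes in them was not tested.

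RPS27L, a paralogue of RPS27 that is known as a target of p53 in other human cells, had the smallest p-value of the set. Its normalized level on probe ILMN_1712678 was 13.02, 13.04 and 13.01 in the knockdown, against 13.23 and 13.23 in the control. The groups did not overlap, and all knockdown arrays lay about equally far below the control arrays. The difference of -0.21 ± 0.06 (standard error), a 1.15-fold lower level with a 95% interval of -0.33 to -0.08, did not pass in limma (adjusted p = 0.068). The deposited signals themselves were 9161, 8420 and 8107 in the knockdown and 8927 and 9496 in the control and overlapped, and without normalization the difference was -0.11 (adjusted p = 0.46). With an offset of 50 in place of 16, or with the trend and robust options of eBayes, it passed (adjusted p = 0.0498 and 0.023), and over all 18 alternatives the adjusted p ran between 0.023 and 0.46.

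Its parent RPS27, a protein of the small subunit with a zinc finger, stood at 15.85, 15.84 and 15.94 in the knockdown and at 15.92 and 15.94 in the control. The arrays of the groups overlapped, with a difference of -0.05 ± 0.06 (adjusted p = 0.70). The other probes of RPS27 were at 0.0035 and 0.07. The difference between the changes of RPS27L and RPS27 was not tested. The windows printed above show a TOP tract at the annotated start of RPS27 and none at that of RPS27L.

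**Figure D2:**
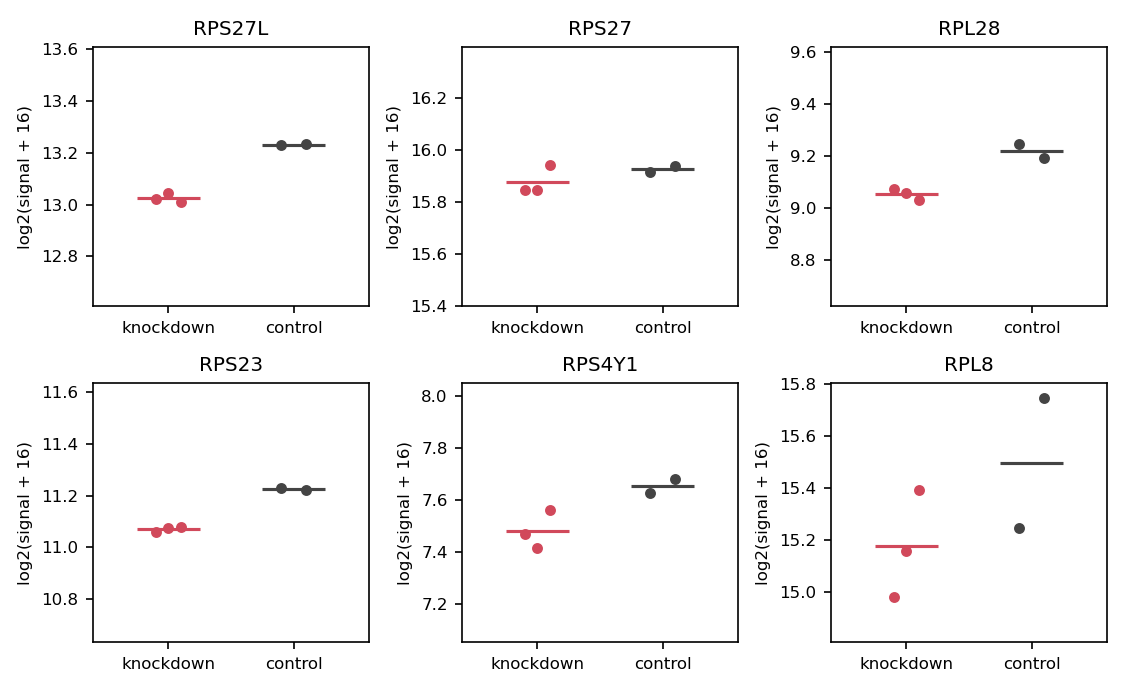
Normalized level, log2(signal + 16), of 6 genes on each knockdown and control array (points) with the group mean (line). Each panel spans the same height of 1 log2 unit, so that the spread of RPL8 and the narrow groups of RPS27L and RPS23 can be seen on 1 scale.

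RPS23, which sits at the decoding centre of the small subunit, read 11.06, 11.08 and 11.08 in the knockdown, against 11.23 and 11.22 in the control. The groups did not overlap, and the difference of -0.15 ± 0.06 was not called (adjusted p = 0.15). RPL28, a protein of the surface of the large subunit, read 9.07, 9.06 and 9.03 in the knockdown and 9.25 and 9.19 in the control, a difference of -0.17 ± 0.06 (adjusted p = 0.14). The knockdown arrays again all lay below the control arrays. Both start with a TOP tract in the windows above. Without normalization the differences of RPS23 and RPL28 were -0.08 and -0.10 (adjusted p = 0.59 and 0.47). RPS4Y1, the Y-linked copy of RPS4X, was detected on 3 of 5 arrays only, with signals of 158 to 174 in the knockdown and 176 to 182 in the control, against a pooled background of 124. Its difference of -0.17 ± 0.06 (adjusted p = 0.16) comes from signals close to the background, and it was -0.70 with the pooled background subtracted and -0.63 with normexp (adjusted p = 0.21 and 0.20). Whether its probe also binds RNA of other copies of the gene was not tested.

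RPL8, which contributes to the peptidyl transferase centre of the large subunit, had the largest difference of the set without background correction. With the background corrected, RPS4Y1 and RPL29 differed by more, but both have signals close to the background and neither was called. The levels of RPL8 were 14.98, 15.16 and 15.39 in the knockdown, against 15.25 and 15.75 in the control. The groups overlapped, and control array 2 stood above the other 4. The difference was -0.32 ± 0.14 (adjusted p = 0.23), but -0.07 without control array 2 and -0.56 without control array 1. The second probe of the gene, with signals of 203 to 205 in the knockdown and 174 to 194 in the control, gave 0.06.

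Other proteins around the catalytic centre and the exit tunnel had values on both sides of zero. RPL3, which shapes the peptidyl transferase centre, had 15.66, 15.73 and 15.61 in the knockdown, against 15.55 and 15.61 in the control, a difference of 0.08 ± 0.06 (adjusted p = 0.49). RPL4, whose long loop lines the exit tunnel, had 14.48, 14.68 and 14.68 in the knockdown, against 14.82 and 14.71 in the control, a difference of -0.16 ± 0.08 (adjusted p = 0.28). The difference of RPL4 was -0.09 without knockdown array 1 and -0.10 without control array 1. RPL39, a small protein of the tunnel, was at 0.03 ± 0.07, and RPL23A, at the tunnel's exit, at -0.04 ± 0.07. RPL23, a protein of the subunit interface, was at 0.10 ± 0.07. None was called. The stalk proteins RPLP1 and RPLP2, which recruit the elongation factors, were at 0.0020 ± 0.06 and -0.04 ± 0.06. Both values come from probes near the upper end of the arrays, with signals of 62581 to 65488 and 62826 to 67158. Dimmer probes of RPLP1 gave -0.08 ± 0.07 and -0.21 ± 0.10 (adjusted p = 0.58 and 0.26 in limma).

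RPL5 and RPL11 bind the 5S ribosomal RNA and, outside the ribosome, hold back the p53 ligase MDM2. RPL5 read 14.19, 14.17 and 14.08 in the knockdown and 14.15 and 14.19 in the control, so that the groups overlapped, with a difference of -0.02 ± 0.06. RPL11 read 15.89, 15.84 and 15.86 in the knockdown and 15.80 and 15.82 in the control. Its groups did not overlap, yet the difference of 0.06 ± 0.06 was not called (adjusted p = 0.64), and its second probe was at -0.01.

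Genes of Diamond-Blackfan anaemia and of the 5q- syndrome gave no call, beside 2.56% of all genes called higher and 3.70% lower. On their brightest probes, the 9 listed ones, RPS19, RPL5, RPL11, RPL35A, RPS7, RPS10, RPS24, RPS26 and RPS14, had differences between -0.05 and 0.06 with a median of -0.0024, and the smallest adjusted p among them was 0.64. RPS14, the small subunit gene lost in the 5q- syndrome, had 15.28, 15.35 and 15.47 in the knockdown, against 15.38 and 15.31 in the control (0.02 ± 0.07). RPS19, the gene mutated most often in Diamond-Blackfan anaemia, had signals of 64589, 65336 and 64430 in the knockdown, against 64438 and 66446 in the control (log2 difference -0.03 ± 0.06). In both the arrays of the groups overlapped. The 95% intervals of these 9 probes lay between -0.18 and 0.21. They bound the change in signal only. The probes of RPS19 and RPS10 (61901 to 65763) read near the upper end of the arrays, where a change in RNA may be understated. Second probes of 3 of these genes lay farther out, with -0.24 for RPS24 (adjusted p = 0.051), -0.20 for RPS7 (adjusted p = 0.10) and 0.14 for RPS14 (adjusted p = 0.18), and the mean of all probes gave -0.12 for RPS24 and -0.13 for RPS7. The list is not complete: 9 further genes linked to the anaemia, RPL18, RPL26, RPL27, RPL31, RPL35, RPS15A, RPS27, RPS28 and RPS29, were looked up after the values were seen and lay between -0.09 for RPL35 and 0.05 for RPL26, with a smallest adjusted p of 0.45.

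On their brightest probes, the remaining paralogues had differences within 0.05 of zero. RPL26L1 had 11.68, 11.71 and 11.67 in the knockdown, against 11.66 and 11.63 in the control (0.04 ± 0.06), and RPL26 was at 0.05 ± 0.07. RPL36AL was at 0.03 ± 0.07 and RPL36A at 0.04 ± 0.06. RPL39L, a paralogue of RPL39 known from testis and tumours, was at 0.02 ± 0.06. RPL7L1, whose product is known from the assembly of the large subunit, was at -0.05 ± 0.07, and RPL7 at -0.10 ± 0.06 with groups that did not overlap. RPL22 was at -0.07 ± 0.07 and RPS4X at 0.04 ± 0.06. Second probes were at 0.11 for RPL39L, 0.08 for RPL36AL, 0.0048 for RPL26L1, -0.02 for RPL7L1 and -0.03 for RPS4X. None of these was called. Probes of near-identical copies may read each other's RNA, which these data cannot resolve.

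The 19 matched genes without a TOP tract at any RefSeq start had a median difference of -0.0039 (range -0.21 to 0.08). The 43 with the tract had one of -0.0024 (range -0.17 to 0.07). These groups rest on the annotated start base, so a misplaced start could put a TOP gene among the 19. At an unadjusted p under 0.05, 1 of the 19 and 3 of the 43 passed, beside 24.0% of all genes at any level. The difference between these groups of genes was not tested. The median levels of these groups of genes were 15.03 and 15.09. RPS27L had the lowest value among the 19, and RPS4Y1, whose signals lay close to the background, among the 43.

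Some of these genes had signals near the upper end of the arrays, where a bead's reading may no longer follow the amount of RNA. The mean signal exceeded 60000 in 12 of the 73 genes and 30000 in 38, against a highest signal of 67779 to 70208 per array. RPS12 had 67571, 67625 and 66951 in the knockdown, against 67626 and 67587 in the control, which leaves almost no spread on which a change could show. RPL32 had 67735, 66019 and 64824 in the knockdown, against 63745 and 65156 in the control. Only 8 genes had a mean signal under 1000. Among the dimmest were RPL29, with signals of 178 to 188 in the knockdown and 189 to 191 in the control (difference -0.13 ± 0.06, adjusted p = 0.25, or -0.41 and -0.38 with the pooled background subtracted and with normexp, adjusted p = 0.12 in both), and RPL37, with 480 to 499 in the knockdown and 469 and 597 in the control (-0.17 ± 0.09, adjusted p = 0.31). The difference of RPL37 was -0.01 without control array 2 and -0.33 without control array 1 (adjusted p = 0.97 and 0.066). Brightness also depends on the probe, so these signals do not rank the genes by amount of RNA.

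**Figure D3:**
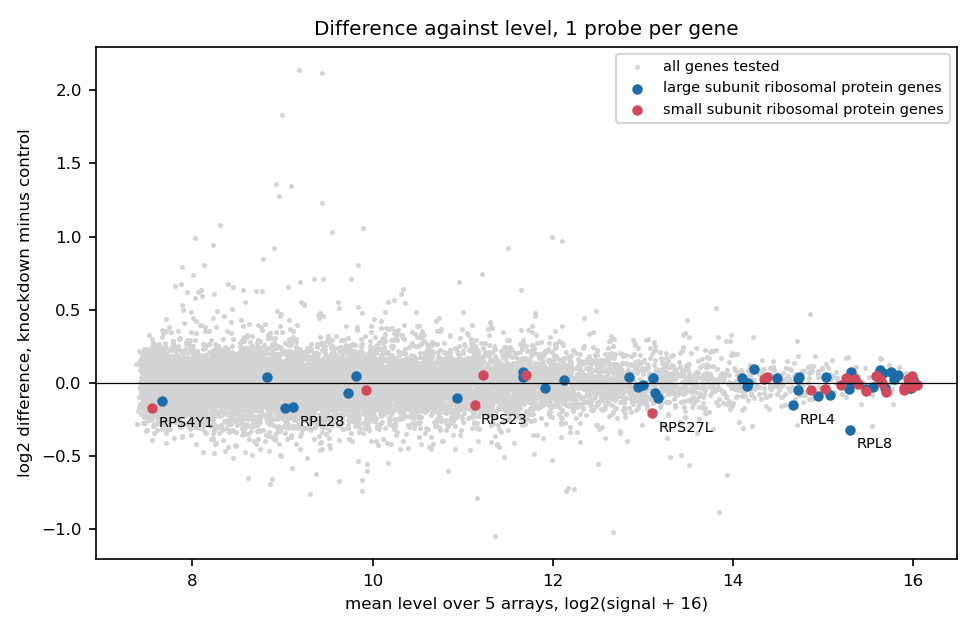
Log2 difference between knockdown and control (vertical axis) against mean level over the 5 arrays (horizontal axis) for 11041 genes (grey) and for ribosomal protein genes of the large (blue) and small (red) subunit. Most ribosomal protein genes lie in the right part, where differences of all genes are small.

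Differences of all genes were smaller in the brightest bands, so the set was also read in bands of level that were chosen after seeing the data. In the brightest of 5 bands, the median size of the difference, without its sign, was 0.036 over the 24 ribosomal protein genes and 0.035 over all 64 genes there. In the next band, which begins at a level of 14, it was 0.042 over 26 ribosomal protein genes and 0.058 over 210 genes. In the bands with fewer members, it was 0.037 over 8 and 0.072 over 1123 genes between 12 and 14, 0.054 over 7 and 0.085 over 2936 between 10 and 12, and 0.099 over 8 and 0.082 over 6708 below 10. The 8 dim genes had a median difference of -0.10, with 2 of them, RPL28 and RPS4Y1, at an unadjusted p under 0.05, beside 1617 of all 6708 genes of that band (24.1%). At that p, 0 of the 24 members in the brightest band passed, beside 4.69% of all genes there. In the next band 1 of 26 passed (3.85%), beside 10%. Between 12 and 14 it was 1 of 8 (12.5%), beside 20.7%, and between 10 and 12 it was 1 of 7 (14.3%), beside 26.3%. In limma 0 ribosomal protein genes of any band were called.

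**Figure D4:**
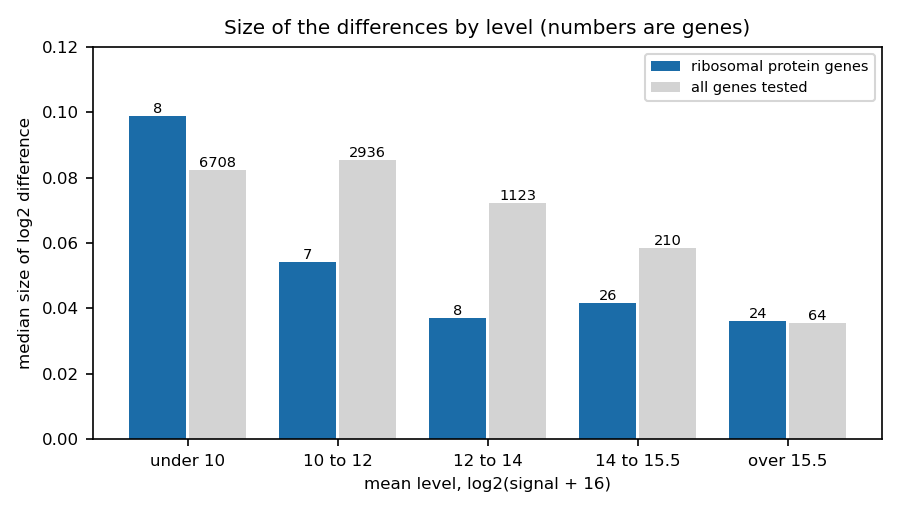
Median size of the log2 difference, without its sign, for ribosomal protein genes (blue) and all genes tested (grey) in 5 bands of mean level, with the number of genes above each bar. The bars of the brightest band are of about equal height (0.036 and 0.035), and those of the next 3 bands are lower for ribosomal protein genes.

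A total of 31 genes were read by more than 1 probe. All probes of a gene had the same sign in 17 of the 31, the median gap between the differences of a gene's probes was 0.08, and the gap exceeded 0.2 in 5, RPL8, RPL32, RPS24, RPLP1 and RPS29. In 14 genes the levels of the probes were more than 3 log2 units apart. Of the 116 probes, 10 had an unadjusted p under 0.05, beside 21.2% of all 19105 detected probes, and 0 were called in limma. The nearest was the second probe of RPS24, ILMN_2399893, with signals of 2751, 2425 and 2375 in the knockdown, against 2791 and 2827 in the control. Its arrays did not overlap, and its difference was -0.24 ± 0.06 (adjusted p = 0.051), while the bright probe of RPS24 was at -0.0024 ± 0.06. The second probe of RPS7 was at -0.20 ± 0.06 (adjusted p = 0.10), against -0.05 ± 0.06 for its brightest. Whether these probes read different transcripts of the genes was not tested.

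**Figure D5:**
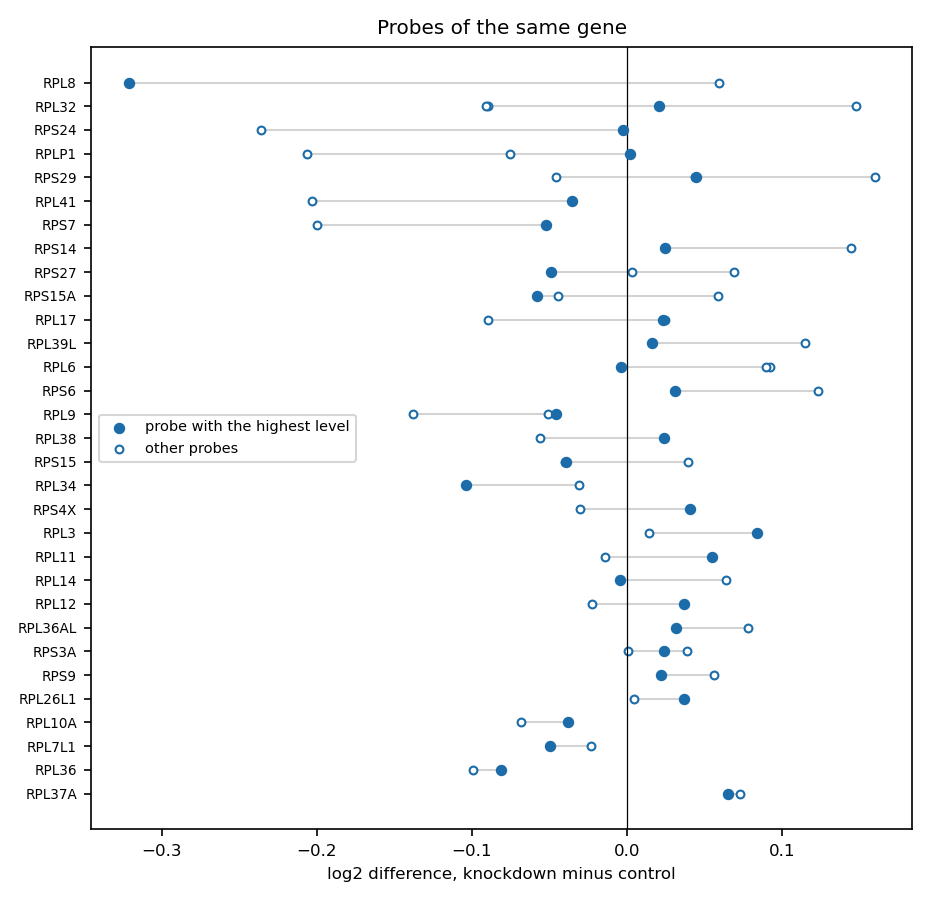
Log2 difference between knockdown and control for every probe of the 31 ribosomal protein genes with several probes, with the probe of the highest level filled and the others open. The largest gap is that of RPL8, and the lowest open point is the second probe of RPS24 at -0.24.

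Other genes of translation were read beside the set. Of 35 listed genes, which were translation factors or genes known for a TOP tract, 33 were tested, and limma called 0 higher and 0 lower. At an unadjusted p under 0.05, 3 passed (9.09%), beside 24.0% of all genes at any level. Their median difference was 0.0047. EIF2S3, a subunit of the factor that brings the initiator tRNA, had the smallest p, with -0.25 ± 0.07 (adjusted p = 0.061). PABPC1, the poly(A)-binding protein and itself a TOP gene, was at 0.16 ± 0.06 (adjusted p = 0.16). FAU, which encodes a small subunit protein outside the symbol rule, was at -0.01 ± 0.06. Of 76 mitochondrial ribosomal protein genes, 1 was called higher and 0 lower, beside 2.56% and 3.70% of all genes. Their median difference was 0.01 and its median size 0.065, beside a size of 0.042 for the cytosolic set and 0.081 for all genes.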

How the data were processed

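Gene expression was measured on Illumina expression beads with 0.55 µg of total RNA per sample. The authors deposited bead intensity on a linear scale for 19144 probes with sample names, with GenomeStudio 2009.2, per the submitters' processing notes. Its settings for background and normalization: not given in the sources used here. A larger deposited table of 47321 probes holds the same signals with a detection p-value each, per the file headers, under 5 signal column names that match no sample, which therefore served only as a key and for a pooled background. Only 47 labelled rows carry the ID that their signals have there, so each row was named through its 5 signals, and the sample was always taken from the labelled column. Symbols were updated through gene identifiers in RefSeq (GRCh38.p14).

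Values were log2(signal + 16), quantile normalized between arrays. Probes with a detection p-value under 0.05 on at least 2 arrays were kept (19105). limma 3.58.1 (R 4.3.3; lmFit and eBayes) compared the groups with 3 residual degrees of freedom, or 10.1 with the prior. The script was tested on simulated data. Precision is limited by having 5 arrays, and the standard error had a median of 0.07 over all probes. The background was not corrected, so differences of dim genes are understated.

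The members and lists were chosen with earlier results of these data known. The text names the 12 members with the smallest p, the 6 brightest and 4 dimmest, paralogues with their parents, genes of Diamond-Blackfan anaemia and the 5q- syndrome, up to 4 genes whose probes differ most, the 2 other translation genes with the smallest p, and FAU. The dimmest also include RPS4Y1 and RPL36A. A few more are named as the members of a count. RPS29, RPL23A and further genes of Diamond-Blackfan anaemia were singled out after their values were seen. So were the second probes of RPS7, RPS14 and the paralogues.
Alternatives covered scaling, offset, filter, background, probe choice, eBayes options, array weights, a replicate block and each array left out. Replicate numbers 1 and 2 occur in both groups, but the deviations of arrays with the same number correlated at -0.22 and -0.09 across probes, so the numbers were not taken to pair the arrays.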

Additional observations from a re-analysis of the deposited data

How the results depend on the processing

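The count of higher genes was 0 under all 18 alternatives. That of lower genes was 1 with an offset of 50 and with the trend and robust options of eBayes (RPS27L in both, with 785 and 1007 of all genes called, against 692 in the main setting), 1 with a replicate block (RPL8, -0.43, adjusted p = 0.049 in limma), and 0 under the other 15. RPS27L ranged from -0.22 to -0.11 (adjusted p 0.023 to 0.46), and RPL8 from -0.56 to 0.06 (adjusted p 0.049 to 0.83). The replicate block gave a median over the ribosomal protein genes of -0.02, and with it 238 of all genes were called, against 692 without it. Without normalization the medians were 0.056 over the ribosomal protein genes, 0.072 and 0.049 over those of the large and small subunit, 0.071 over other translation genes and 0.065 over all genes. The median over all genes was otherwise 0.0062 with median scaling, -0.0038 with cyclic loess, -0.0136 with the pooled background subtracted and -0.0132 with normexp on the labelled probes, and from -0.0132 to -0.00797 with 1 array left out. The cause was not tested. With these background corrections 96 and 104 of all genes were called, and with 1 array left out 214 to 321. Of the 38 named genes, 22 changed sign under at least 1 alternative, and none was called where its sign had changed. RPL8, one of the 22, was called under the replicate block only. Signals near the upper end of the arrays limit what can be seen in the brightest genes.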

Other observations

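Genes whose symbols resemble those of ribosomal proteins but that were left out of the set gave these values, chosen after they were seen. RPS6KA5, which encodes the kinase MSK1 of histone H3 and CREB, was higher in the knockdown. Its signals were 856, 807 and 722 in the knockdown, against 447 and 464 in the control, and the groups did not overlap. The difference was 0.71 ± 0.06, a 1.64-fold higher level (adjusted p = 0.00025 in limma). The other 6 measured genes of the S6 kinase family were not called, among them RPS6KB1, the kinase of the ribosomal protein RPS6, with -0.19 ± 0.06 (adjusted p = 0.10). RPS6 itself was at 0.03 ± 0.09.

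Of 15 ribosomal protein pseudogenes with a detected probe, 0 were called in limma, beside 2.56% of all genes called higher and 3.70% lower. At an unadjusted p under 0.05, 0 passed, beside 24.0% of all genes at any level. Their median difference was -0.0094, with a range of -0.17 to 0.10. Some had signals near the upper end of the arrays, such as RPL13AP5 with signals of 59461, 59537 and 57843 in the knockdown, against 55015 and 55516 in the control. Whether these probes read the pseudogene or its parent RPL13A was not tested.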
